A study of Mus musculus with 12 samples.

Results

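The clustered protocadherins are cell-surface adhesion proteins encoded side by side in the alpha, beta and gamma clusters on mouse chromosome 18. They were examined in primary cultures of newborn *Myt1l* mutant mice. Members were taken from the deposited count table by gene symbol, which gave 58 of the 55397 genes listed: 14 of the alpha cluster, 22 of the beta cluster and 22 of the gamma cluster. Of these, 57 reached 0.5 CPM (counts scaled to the size of the library) in at least 1 animal, and the same number passed the low-count filter of the test. The exception was *Pcdhb1*, at 0.220, 0.0966 and 0.148 CPM in HET animals 505, 506 and 508 and at 0.0576, 0.134 and 0.281 CPM in WT animals 510, 511 and 513.

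Protocadherins of these clusters bind copies of themselves on neighbouring cells, and the combination a neuron displays acts as a surface identity code by which neurites of the same cell avoid each other. Each alpha and gamma transcript joins 1 variable exon, which encodes the extracellular and membrane-spanning parts and has a promoter of its own, to constant exons common to the cluster, which encode a shared cytoplasmic tail. Beta genes consist of a single exon and lack such a tail. Most variable exons are chosen seemingly at random in single neurons with the help of CTCF, cohesin and promoter methylation, whereas the C-type exons *Pcdhac1*, *Pcdhac2*, *Pcdhgc3*, *Pcdhgc4* and *Pcdhgc5* follow their own rules of expression.

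The HET cultures came from pups that carried 1 germline *Myt1l* allele with a small frameshift deletion made by CRISPR/Cas9, and the WT cultures from pups with the unmutated gene. There were 3 animals per genotype, HET 505, 506 and 508 and WT 510, 511 and 513, with 2 libraries per animal whose counts were summed. All were dissected on postnatal day 0 and are labelled as male C57BL/6J cortex, and every culture received Ara-C, an agent that kills dividing cells. The study's methods name hippocampus or cortex as source of such cultures, and C57BL/6N as the strain of the mutant mice. Its RNA-Seq of primary mouse neurons was done after days in culture, not on the day of dissection. The mutant transcript is not degraded according to the labels, so *Myt1l* counts do not check the genotype, and the labels do not say what separates both libraries of an animal.

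Totals were 40642699 to 43745258 counts in HET animals and 43129302 to 52833161 counts in WT animals. WT 511 held 18805 counts of *Xist*, the transcript of the inactive X chromosome, and the other animals 5 to 10, against the male label. The cultures were not neurons alone. The 15 pan-neuronal markers summed to 3417, 5571 and 6136 CPM in HET animals and to 6737, 7339 and 6389 CPM in WT animals, with every HET animal below every WT animal. All 15 had a negative log2 fold change, with a median of −0.46. For each other cell type 10 markers were summed. Choroid plexus markers, at 1556, 732 and 398 CPM in HET animals and 274, 170 and 88.6 CPM in WT animals, and ependymal markers, at 1355, 1140 and 1232 CPM against 773, 625 and 884 CPM, were higher in every HET animal. So were the summed microglia and oligodendrocyte lineage markers. Most of the oligodendrocyte lineage sum was 1 marker, *Cnp*, at 197, 170 and 182 CPM in HET animals and 117, 103 and 162 CPM in WT animals. Of 8 tested markers of that lineage, 6 had a positive and 2 a negative log2 fold change, and 2 were higher in every HET animal. Astrocyte markers summed to 12980 to 14340 CPM in HET animals and to 9264 to 14020 CPM in WT animals, and they overlapped, as did the meningeal and endothelial sums. HET 505 had the lowest neuronal and the highest choroid plexus sum of the 6 animals. In such bulk samples fewer cells of a type and less RNA per cell cannot be told apart.

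The alpha and gamma rows of the count table were almost copies of each other within their cluster. The highest of the 14 alpha rows held 1.33 to 1.37 times the counts of the lowest in the same animal, and 1.06 to 1.08 times when *Pcdhac2* was set aside. For the 22 gamma rows the factor was 1.37 to 1.44, and 1.04 to 1.05 without *Pcdhgc3* and *Pcdhgc5*. The 21 beta members above 0.5 CPM spread far more, by a factor of 9.9 to 18.7. In the matching gene annotation every alpha model contains the same 2860 bases of constant exons, 38.0% to 54.9% of its exon length. The gamma models contain 2116 to 2119 common bases, which are 27.8% to 45.4% of their length, and the beta models share no bases across their cluster. A fragment from the constant exons therefore appears to have entered the row of each member, so the 14 alpha rows, and likewise the 22 gamma rows, are not separate measurements.

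The plot of each member's row by animal shows these plateaus.

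**Figure D1:**
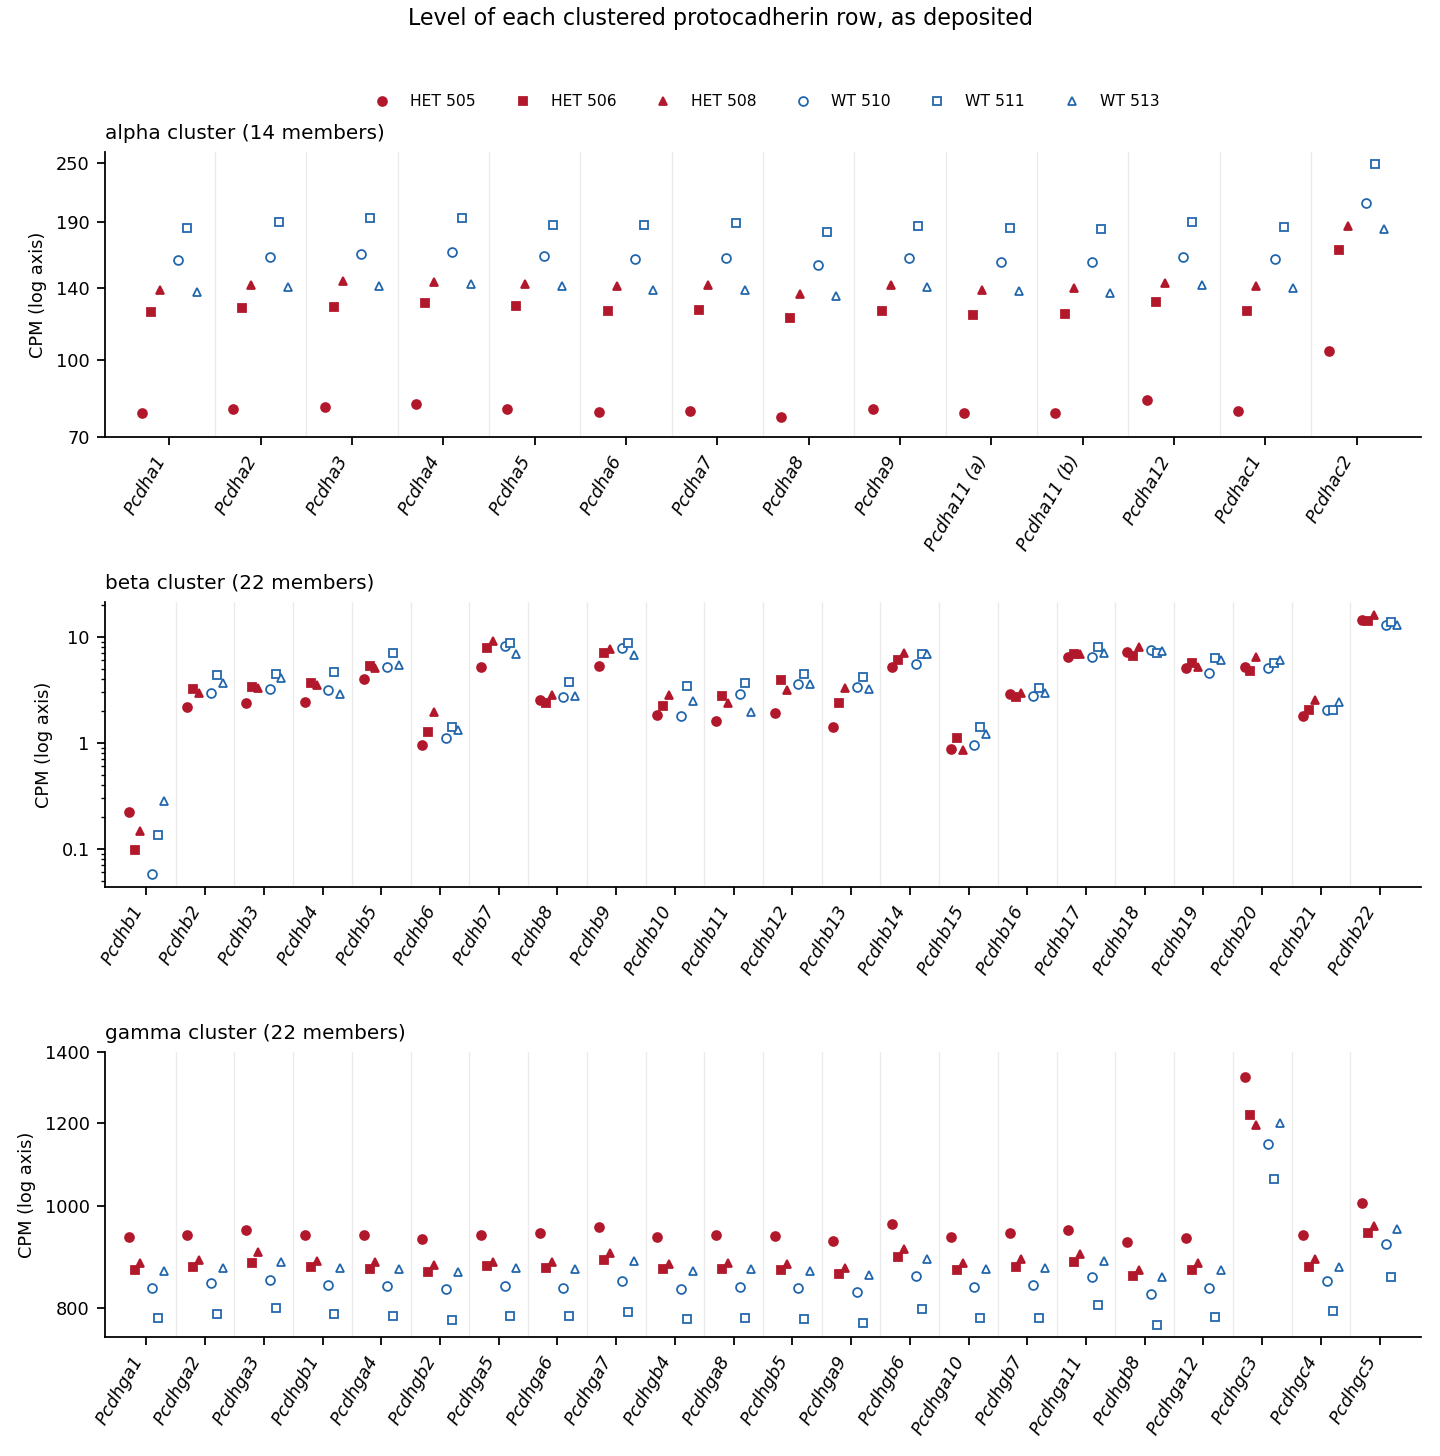
Level of each member in the deposited rows, in CPM on a log axis, with members in chromosomal order. Filled symbols are HET animals 505, 506 and 508 and open symbols WT animals 510, 511 and 513, with 1 symbol per animal; Pcdha11 (a) and (b) are the rows starting at 37005203 and 37010712. The alpha and gamma rows repeat 1 level per animal except at *Pcdhac2*, *Pcdhgc3* and *Pcdhgc5*, and the beta rows differ from member to member.

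To separate the members, the lowest row of each cluster was taken as its shared count, and the excess of every other row over it as an estimate of the fragments from that member's own exon. The lowest row was *Pcdha8* for alpha and *Pcdhgb8* for gamma in 12 of 12 libraries. The estimate is too low where the lowest row holds fragments of its own exon, and too high where models overlap further: *Pcdhgb1* and *Pcdhga4* have 1038 bases in common, and *Pcdhgb4* and *Pcdhga8* 108 bases, so these members are not fully separated. *Pcdhgb8* itself is the member without a model of the same version in that annotation, and the shared gamma count was divided by the common bases of the other models. Sequence found in no other member spans 2346 to 4675 bases in alpha and 1570 to 5508 bases in gamma. A member's excess rested on 53 to 3006 counts per animal in alpha and on 118 to 18270 in gamma. Part of this sequence also lies in gene models that are not members. This holds for 2410 of 2904 bases in *Pcdha4*, 338 in *Pcdha7*, 222 in *Pcdha6* and 69 in the *Pcdha11* row at 37010712. In *Pcdhgc5* it holds for 902 of 5508 bases. The excess of these members may thus hold fragments of other models. Per kilobase, the shared alpha count was 26.9, 42.5 and 47.5 CPM in HET animals and 54.3, 63.4 and 47.0 CPM in WT animals. The excess of all alpha members, each divided by its own length, summed to 21.8, 38.6 and 42.9 CPM per kilobase in HET animals and 42.7, 53.7 and 40.0 in WT animals. For gamma the shared count was 436, 405 and 410 CPM per kilobase in HET animals and 389, 364 and 404 in WT animals, and the summed excess was 245, 239 and 239 against 222, 214 and 238. Per length, the gamma cluster was thus the most abundant of the 3 clusters in every animal, while beta members together reached 18.5, 22.6 and 24.5 CPM per kilobase in HET animals and 22.4, 27.5 and 23.3 in WT animals.

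The alpha cluster spans 36930184 to 37187661 on chromosome 18 of mm10. Its shared count, the *Pcdha8* row, was 76.9, 122 and 136 CPM in HET animals 505, 506 and 508, against 155, 181 and 135 CPM in WT animals 510, 511 and 513. HET 505 was lowest, and the genotypes overlapped only because HET 508 lay above WT 513. The means were 111 ± 30.8 CPM in HET and 157 ± 23.4 CPM in WT animals (SD, n = 3 each), a log2 ratio of −0.49. Summed over all alpha rows the log2 ratio was also −0.49, and it ranged from −0.66 without HET 508 to −0.28 without HET 505. The summed own-exon excess, 60.4, 106 and 118 CPM in HET animals against 118, 148 and 110 CPM in WT animals, overlapped too (log2 ratio −0.40).

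The pan-neuronal markers moved with the alpha cluster. The shared alpha count amounted to 2.25%, 2.18% and 2.21% of the summed pan-neuronal markers in HET animals, and to 2.31%, 2.47% and 2.11% in WT animals. Relative to these markers the genotypes overlapped, and HET 505 lay within the range of the WT animals. The part of the neuronal share in the alpha values was not tested beyond this ratio.

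The gamma cluster, from 37661793 to 37841873 on the same chromosome, went the other way. Its shared count, the *Pcdhgb8* row, was 924, 858 and 869 CPM in HET animals, against 825, 771 and 856 CPM in WT animals. Each HET animal lay above each WT animal, but HET 506 and WT 513 were nearly equal. The means were 883 ± 35.3 CPM in HET and 817 ± 43.4 CPM in WT animals (SD, n = 3 each), a log2 ratio of 0.11. Without WT 511 the log2 ratio of the summed gamma rows was 0.07, and without WT 513 it was 0.15. The gamma excess summed to 788, 765 and 761 CPM in HET animals and to 714, 683 and 762 CPM in WT animals, and here WT 513 overlapped with the HET animals. Choroid plexus, ependymal, microglia and oligodendrocyte lineage sums were higher in every HET animal as well, the last of these mostly *Cnp*. The astrocyte sums overlapped, and the part of such non-neuronal cells in the gamma values was not tested.

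The beta cluster lies between both, from 37264938 to 37524479. Its members summed to 80.9, 95.4 and 104 CPM in HET animals and to 93.9, 114 and 98.1 CPM in WT animals, which overlapped (log2 ratio −0.12, −0.03 without HET 505 and −0.21 without HET 508). Over all 58 rows the log2 ratio was 0.06. Since gamma rows made up most of that sum, and each repeats the constant exons, the total says little about the other clusters.

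**Figure D2:**
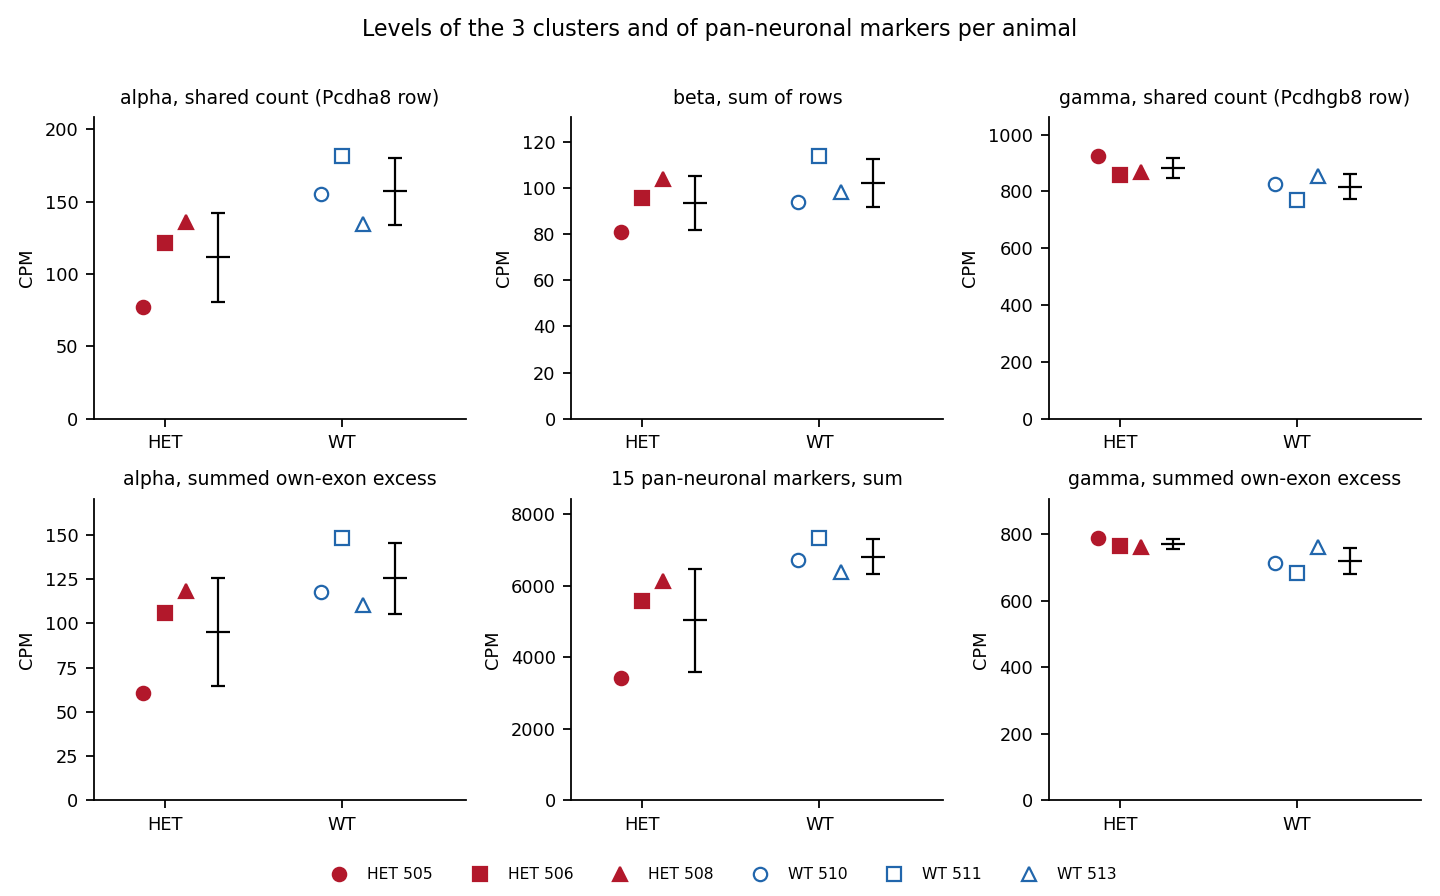
CPM per animal of the shared alpha count, the beta sum and the shared gamma count (top), and of the alpha excess, the 15 pan-neuronal markers and the gamma excess (bottom). Symbols are animals as named in the legend, black bars give the mean ± SD of 3 animals. HET 505 is lowest in the alpha, beta and pan-neuronal panels, and in the shared gamma panel the 3 HET animals lie at 858 to 924 CPM above the 3 WT animals.

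Ratios within an animal do not depend on how libraries are scaled. The shared alpha count was 8.32%, 14.2% and 15.6% of the shared gamma count in HET animals, against 18.8%, 23.5% and 15.7% in WT animals. Every HET animal was below every WT animal, although HET 508 and WT 513 were nearly equal. The shared alpha count was 0.951, 1.28 and 1.31 times the beta sum in HET animals and 1.66, 1.60 and 1.37 times in WT animals, again with no overlap. The beta sum was 8.76%, 11.1% and 11.96% of the shared gamma count in HET animals and 11.4%, 14.7% and 11.5% in WT animals, which overlapped. Relative to the pan-neuronal markers, both beta (2.37%, 1.71% and 1.69% in HET animals, 1.39%, 1.55% and 1.54% in WT animals) and gamma (27.0%, 15.4% and 14.2% in HET animals, 12.2%, 10.5% and 13.4% in WT animals) were higher in every HET animal. These ratios were chosen after the values were seen and were not tested.

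**Figure D3:**
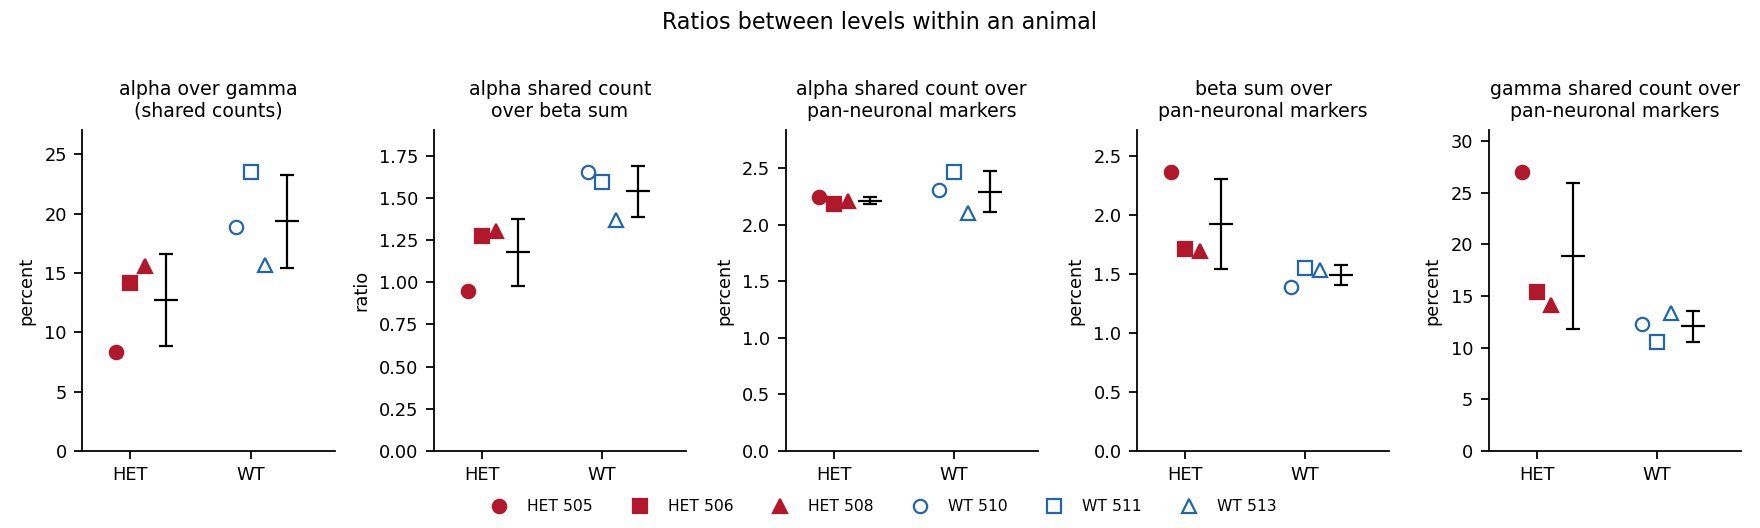
Ratios between 2 levels within each animal, in percent or as a plain ratio, with the numerator and the denominator in each panel's title. Symbols are animals, black bars give the mean ± SD of 3 animals. The alpha cluster is lower relative to gamma and beta in every HET animal, whereas relative to pan-neuronal markers its 6 values lie between 2.11% and 2.47%.

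No member passed an adjusted p under 0.1 from edgeR's quasi-likelihood test over the 18264 genes tested, in either direction (smallest adjusted p of a member = 0.22). The same test called 0.0% of all genes higher and 0.0% lower, so the members did not stand apart in this. At an unadjusted p under 0.05 from edgeR, 0 members were higher and 3 were lower, against 13.2% and 9.11% of all genes. The count of lower members was 15 without HET 508 (10.4% of all genes in that fit) and 11 without WT 513 (12.5%), but 0 without HET 505 (6.55%), HET 506 (8.24%), WT 510 (3.5%) or WT 511 (3.03%). It was 15 with DESeq2 (6.26%) and also with no low-count filter (7.44%). With a filter of 0.5 CPM (9.15%) or with genetic sex as covariate (3.06%) it was 0. By *Xist* counts WT 511 alone was female, so the sex covariate came close to leaving WT 511 out and is no separate check. DESeq2 called 0 members in either direction (smallest adjusted p of a member = 0.14), where it called 7.77% of the genes it tested higher and 4.57% lower. By sign, 14 of 14 alpha rows were negative, 19 of 21 beta rows were negative and 22 of 22 gamma rows were positive, where 50.4% of all genes were positive and 49.6% negative. The alpha and gamma counts each repeat largely 1 measurement. The median log2 fold change was −0.49 for alpha, −0.16 for beta and 0.11 for gamma rows, against 0.003 for all genes.

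The genotypes did not overlap in 15 members, 14 gamma rows and *Pcdhb22*, each with all HET animals above all WT animals. Of all genes 15.5% showed this, and 13.5% showed the opposite, which 0 members did. Among the 8 other gamma rows and the 14 alpha rows HET and WT animals overlapped. These counts rested on single animals: without WT 513, 23 members lay above and 17 below, and without HET 508, 16 lay below.

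Each alpha row carried a log2 fold change between −0.50 and −0.47. The 4 with the smallest unadjusted p from edgeR were *Pcdha8*, *Pcdha4*, *Pcdha1* and the *Pcdha11* row that starts at 37005203 (ENSMUSG00000007440). That row was at 78.0, 123 and 139 CPM in HET animals and 158, 185 and 138 CPM in WT animals (log2 fold change −0.50, standard error 0.21, adjusted p = 0.22 from edgeR). A second row of the same name starts at 37010712 (ENSMUSG00000102206). The RefSeq annotation of this build places *Pcdha10* at the first of these positions, so the name of that row is uncertain.

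Of the alpha members by own-exon excess, *Pcdhac2* was by far the most abundant. This C-type member, which mouse serotonergic neurons need for the even spacing of their axons, had an excess of 27.5, 44.9 and 50.6 CPM in HET animals, against 51.9, 66.9 and 49.5 CPM in WT animals. HET 508 lay above WT 513, and the other HET animals lay below every WT animal (log2 fold change −0.45, standard error 0.22, adjusted p = 0.26 from edgeR, and −0.23 without HET 505). Its share of the whole alpha excess was 45.5%, 42.3% and 42.7% in HET animals and 44.1%, 45.2% and 44.9% in WT animals. The share thus stayed between 42.3% and 45.5% while the level differed widely between HET 505 and WT 511. Serotonergic markers were near the detection limit, with *Tph2*, the enzyme of serotonin synthesis, at 0.617, 1.06 and 1.38 CPM in HET animals and 1.06, 1.11 and 0.983 CPM in WT animals, and *Fev*, a transcription factor of these neurons, at 0 CPM in every HET animal and at 0.115, 0.0890 and 0.0468 CPM in WT animals. The transporter gene *Slc6a4* was at 0.132, 0.145 and 0.295 CPM in HET animals and 0.307, 0.0890 and 0.187 CPM in WT animals. *Pcdhac1*, the other alpha C-type member, had an excess of 1.96, 4.13 and 4.99 CPM in HET animals and 4.42, 4.56 and 5.15 CPM in WT animals (log2 fold change −0.35, standard error 0.31, adjusted p = 0.48 from edgeR). Without HET 505 its log2 fold change was −0.05, and without HET 508 −0.64.

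The alternate alpha exons together held 51.3%, 53.8% and 53.0% of the alpha excess in HET animals, and 52.2%, 51.7% and 50.4% in WT animals. Of the most abundant ones in the deposited rows, *Pcdha4* had an excess of 4.74, 8.43 and 7.82 CPM in HET animals and 10.1, 12.4 and 7.77 CPM in WT animals. *Pcdha3* had 3.64, 6.57 and 8.33 CPM in HET animals and 8.63, 12.04 and 6.74 CPM in WT animals. Both were lowest in HET 505 and overlapped through WT 513. *Pcdha12* differed from them: its excess was 6.10, 9.44 and 7.28 CPM in HET animals and 6.17, 8.59 and 7.07 CPM in WT animals, which gave a log2 fold change of 0.06 ± 0.20 (standard error) with an adjusted p of 0.85 from edgeR, whereas its deposited row, which holds the shared count, was at −0.47. Its share of the alpha excess was 10.1%, 8.91% and 6.15% in HET animals and 5.24%, 5.81% and 6.42% in WT animals. HET 505 and 506 lay above the WT animals and HET 508 among them. The *Pcdha11* row at 37010712 was the only other alpha member with a positive value, 0.08. Of 13 alpha members 11 were negative, with a median log2 fold change of −0.44, and 0 had an unadjusted p under 0.05 from edgeR.

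The order of members by own-exon level per kilobase was similar in all animals. Spearman's rho between animals, over members and thus only a description, was 0.85 to 0.98 for 13 alpha, 0.87 to 0.97 for 21 beta and 0.91 to 0.99 for 21 gamma members. *Pcdhac2* averaged 16.0 CPM per kilobase, and *Pcdha3*, the next alpha member, 3.10. *Pcdhgc3* averaged 101 CPM per kilobase, ahead of *Pcdhgc5* at 15.9, with *Pcdhga9* lowest at 0.937. *Pcdhac2* and *Pcdhgc3* were each first of their cluster in 6 of 6 animals. Of the beta members *Pcdhb9*, at 2.37 CPM per kilobase, and *Pcdhb7*, at 2.19, were nearly equal, and *Pcdhb9* was first in 4 animals.

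**Figure D4:**
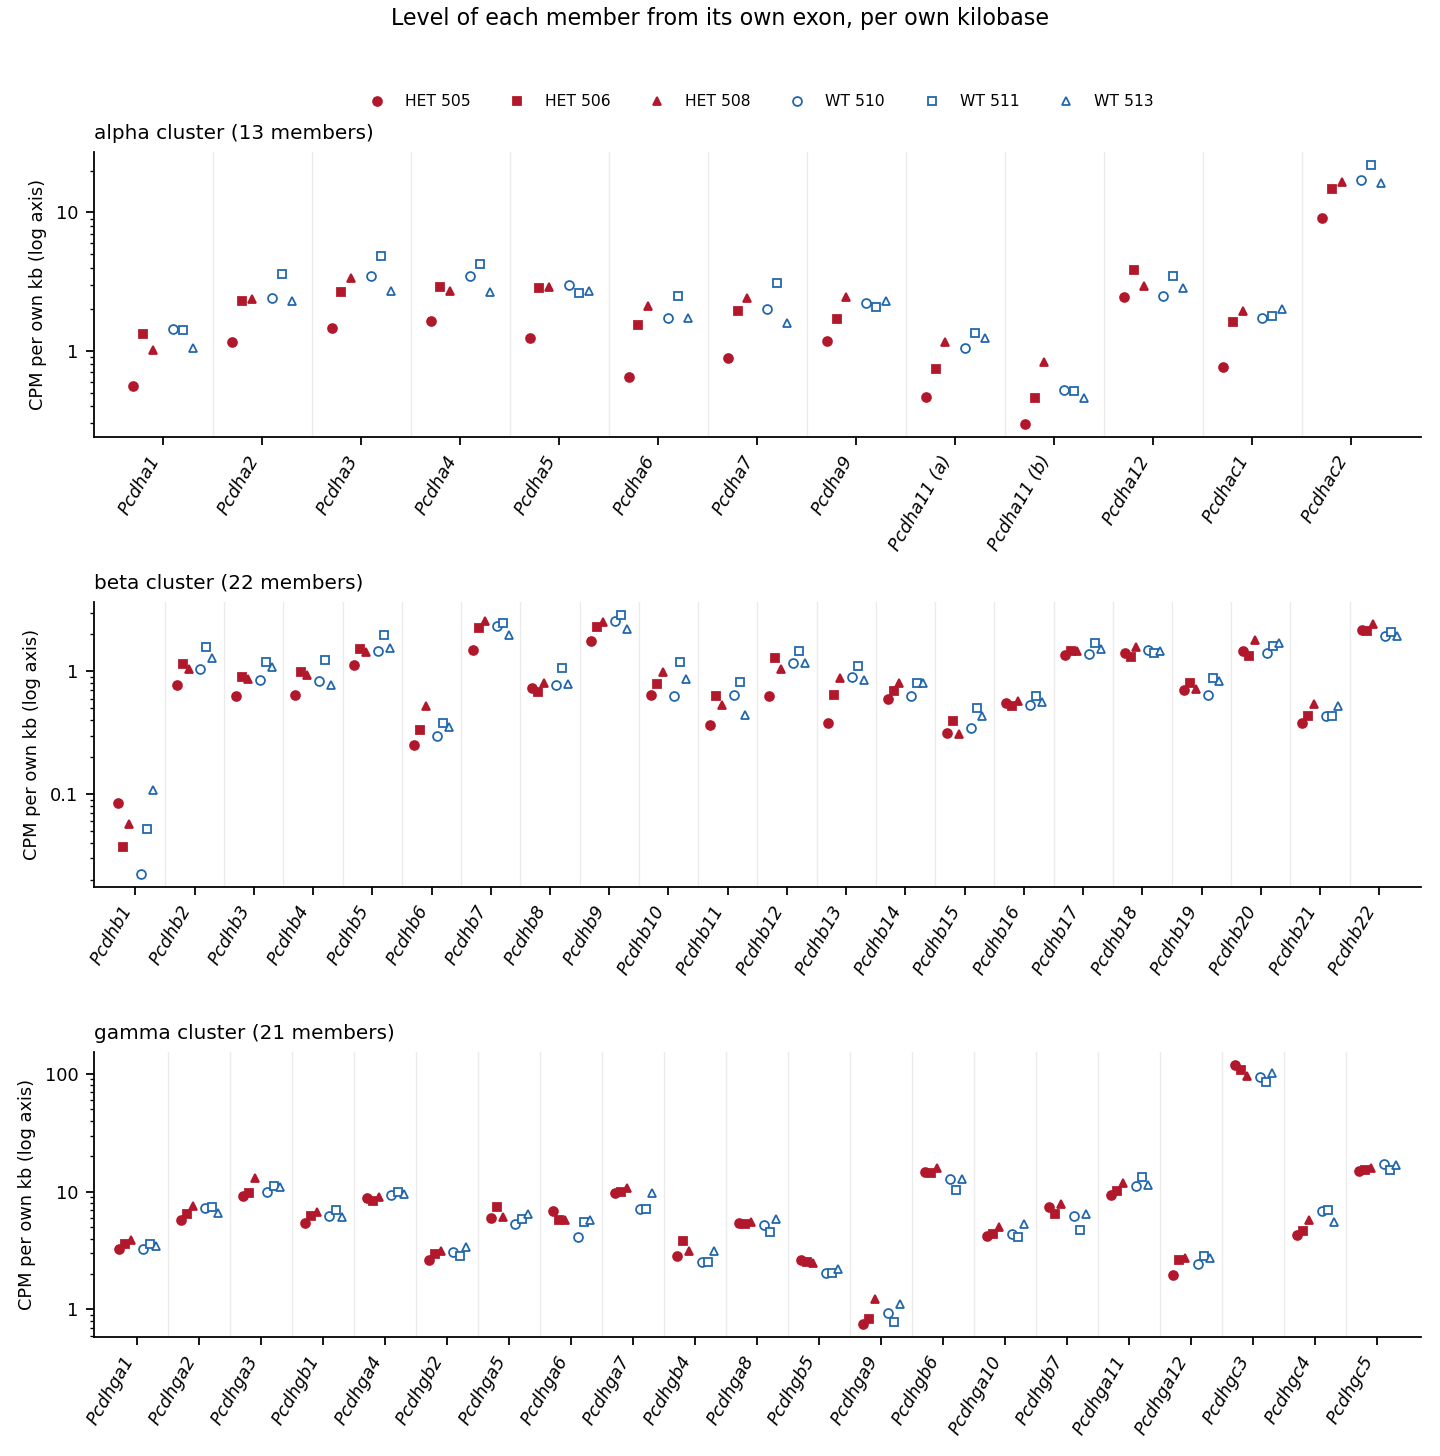
Level of each member per kilobase of its own sequence, in CPM on a log axis: the own-exon excess for alpha and gamma, the whole row for beta. Symbols are animals as named in the legend, and *Pcdha8* and *Pcdhgb8*, whose rows serve as the shared counts, are left out. *Pcdhac2* and *Pcdhgc3* stand above all other members of their clusters in each animal.

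*Pcdhgc3*, which binds the Wnt pathway scaffold Axin1 and promotes dendrite branching in mouse cortical neurons, was the main gamma member. Its own-exon excess was 403, 364 and 325 CPM in HET animals, against 319, 290 and 344 CPM in WT animals. HET 505 was highest and WT 511 lowest, and WT 513 lay above HET 508. On the log2 scale the excess differed by 0.20 ± 0.12 (SE), with an adjusted p of 0.34 by edgeR, and the deposited row by 0.14. Its share of the gamma excess was 51.1%, 47.5% and 42.7% in HET animals and 44.6%, 42.5% and 45.1% in WT animals.

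The other gamma C-type members had a negative log2 fold change of their excess, where that of their deposited rows was positive. In the excess of both members the genotypes overlapped. *Pcdhgc4*, which is required for the survival of inhibitory interneurons in mice, had an excess of 14.8, 16.2 and 19.9 CPM in HET animals, against 23.7, 24.5 and 19.3 CPM in WT animals. HET 508 lay just above WT 513, and HET 505 and 506 lay below every WT animal. On the log2 scale the excess differed by −0.41 ± 0.14 (standard error), with an adjusted p of 0.19 from edgeR, where the deposited row gave 0.10. Without WT 513 edgeR called *Pcdhgc4* lower, as the only member in that direction. The share of all genes called in that fit is not given here. *Pcdhgc5*, whose protein interacts with GABA-A receptors, had an excess of 83.2, 83.7 and 87.0 CPM in HET animals and 94.3, 84.3 and 93.5 CPM in WT animals (log2 fold change −0.10, standard error 0.08, adjusted p = 0.45 from edgeR). As a share of the gamma excess it was 10.6%, 10.9% and 11.4% in HET animals and 13.2%, 12.3% and 12.3% in WT animals, lower in every HET animal.

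Of the alternate gamma members, which split into A and B subfamilies by sequence, an A member, *Pcdhga7*, had the largest positive log2 fold change of the excess (0.34), followed by 3 B members (0.28 to 0.32). *Pcdhgb6* had an excess of 37.4, 36.7 and 41.2 CPM in HET animals and 32.9, 26.5 and 33.1 CPM in WT animals, with no overlap (log2 fold change 0.32, standard error 0.11, adjusted p = 0.19 from edgeR). *Pcdhgb5* had 12.1, 11.7 and 11.4 CPM in HET animals and 9.39, 9.41 and 10.2 CPM in WT animals, and *Pcdhgb7* 19.3, 16.9 and 20.3 CPM against 16.1, 12.4 and 16.9 CPM. Neither overlapped, though HET 506 and WT 513 were nearly equal for *Pcdhgb7*. Together the 6 B members with an excess summed to 100.5, 103 and 110.5 CPM in HET animals and to 92.2, 83.8 and 96.8 CPM in WT animals, a log2 ratio of 0.21. The 12 A members summed to 187, 198 and 219 CPM in HET animals and to between 185 and 208 CPM in WT animals, which overlapped (log2 ratio 0.03).

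Within the A subfamily values went both ways. *Pcdhga7* had an excess of 30.1, 30.9 and 33.7 CPM in HET animals and 22.3, 22.0 and 30.3 CPM in WT animals, overlapping only through WT 513 and HET 505 (log2 fold change 0.34, standard error 0.14, adjusted p = 0.21 from edgeR). Without WT 513 edgeR called it higher, as the only such member, with the share of all genes called in that fit not given here. *Pcdhga11* had 24.7, 26.9 and 31.2 CPM in HET animals and 29.8, 34.9 and 29.9 CPM in WT animals (log2 fold change −0.19, standard error 0.12, adjusted p = 0.33 from edgeR), where its deposited row was at 0.10. *Pcdhga4*, named after its values were seen, had 13.9, 13.2 and 14.1 CPM in HET animals and 14.8, 15.5 and 15.2 CPM in WT animals, and was the only gamma member whose excess was lower in every HET animal. Its excess includes fragments from the bases in common with *Pcdhgb1*, whose excess was 14.2, 16.3 and 17.5 CPM in HET animals and 16.2, 18.5 and 16.0 CPM in WT animals.

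In all, 10 of 21 gamma members had a positive and 11 a negative log2 fold change of their excess, with a median of −0.01, in contrast to the 22 positive deposited rows. By unadjusted p under 0.05 from edgeR, 3 were higher (*Pcdhgb6*, *Pcdhgb5* and *Pcdhga7*) and 1 was lower (*Pcdhgc4*), against 13.2% and 9.13% of all genes in that table. The excess did not overlap in 3 members above (*Pcdhgb5*, *Pcdhgb6* and *Pcdhgb7*) and 1 below, where 15.5% and 13.6% of all genes did. Of 21 members such counts are near the background shares. No gamma member passed the adjusted threshold with edgeR (smallest adjusted p = 0.19) or with DESeq2 (0.11).

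**Figure D5:**
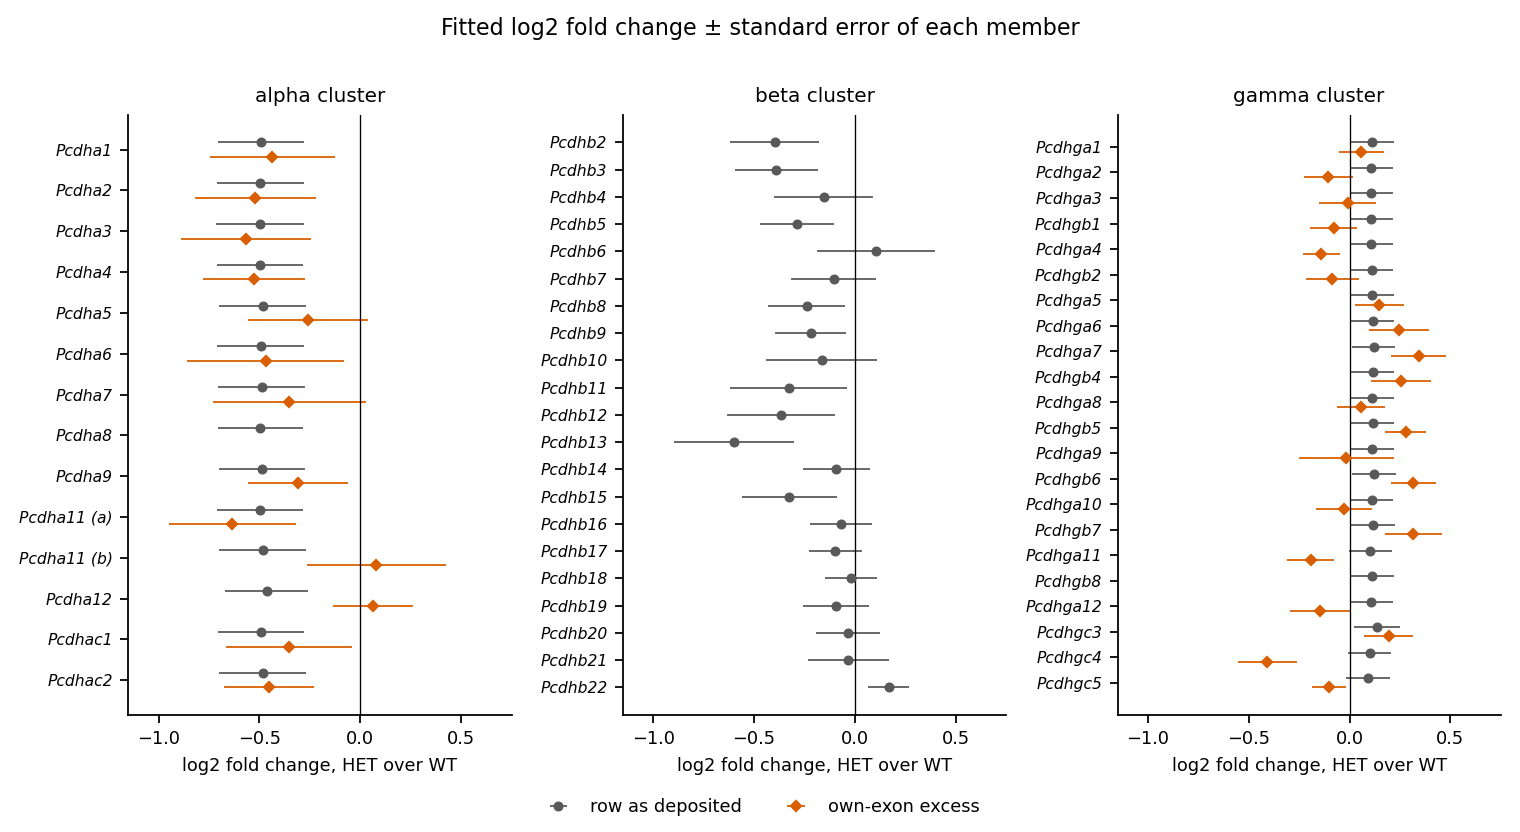
Log2 fold change of HET over WT with its standard error from edgeR for each member, for the deposited row (grey circles) and for the own-exon excess (orange diamonds), with members in chromosomal order from top to bottom. The vertical line marks no difference. The deposited gamma rows all lie at 0.09 to 0.14, whereas their excess runs from −0.41 for *Pcdhgc4* to 0.34 for *Pcdhga7*; the alpha rows lie near −0.49.

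Beta members, whose rows do not hold a shared tail, can be read singly. Only *Pcdhb21* and *Pcdhb22* share 455 bases. *Pcdhb22* had the highest CPM of the beta rows, at 14.4, 14.0 and 16.1 CPM in HET animals and 12.9, 13.9 and 12.8 CPM in WT animals. HET 506 and WT 511 nearly touched, and no values overlapped (log2 fold change 0.17, standard error 0.10, adjusted p = 0.33 from edgeR). Its share of the beta sum, free of library scaling, was 17.8%, 14.7% and 15.5% in HET animals and 13.7%, 12.2% and 13.1% in WT animals.

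Of the other tested beta members, *Pcdhb6* alone had a positive log2 fold change (0.10, standard error 0.29), and 19 were negative. *Pcdhb7* was at 5.24, 7.87 and 9.10 CPM in HET animals and 8.24, 8.66 and 6.95 CPM in WT animals, and its log2 fold change of −0.10 turned to 0.09 without HET 505. *Pcdhb18* was at 7.12, 6.57 and 7.99 CPM in HET animals and 7.59, 7.06 and 7.33 CPM in WT animals (log2 fold change −0.02). The lowest value, named after it was seen, was that of *Pcdhb13*, at 1.41, 2.39 and 3.27 CPM in HET animals and 3.36, 4.14 and 3.18 CPM in WT animals (log2 fold change −0.60, standard error 0.30, adjusted p = 0.26 from edgeR). HET 508 lay among the WT animals and the other HET animals below them. Its share of the beta sum was 1.75%, 2.51% and 3.15% in HET animals and 3.58%, 3.65% and 3.25% in WT animals, lower in every HET animal.

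The delta protocadherins, single genes outside the clusters, showed no joint direction. Of 10 tested, 3 had a positive and 7 a negative log2 fold change (median −0.17), and 0 passed with edgeR. At an unadjusted p under 0.05 from edgeR 1 was higher and 1 lower, against 13.2% and 9.11% of all genes. All HET animals lay above all WT animals in 1 gene and below them in 1, against 15.5% and 13.5% of all genes. *Pcdh9* was at 63.5, 83.5 and 87.4 CPM in HET animals and 98.9, 112 and 97.2 CPM in WT animals, lower in each HET animal (log2 fold change −0.40, adjusted p = 0.18 from edgeR). *Pcdh18* was at 5.11, 2.17 and 2.24 CPM in HET animals and 1.36, 1.76 and 1.61 CPM in WT animals (log2 fold change 1.01, adjusted p = 0.19 from edgeR), and 0.48 without HET 505. *Pcdh19*, whose human counterpart is mutated in a female-limited epilepsy, was at 13.9, 31.2 and 35.2 CPM in HET animals and 33.6, 49.9 and 39.9 CPM in WT animals, which overlapped.

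Of 24 regulators of promoter choice and chromatin, 10 had a positive and 14 a negative log2 fold change (median −0.03). None passed with edgeR. By its unadjusted p under 0.05, 3 were lower and 0 higher, against 9.11% and 13.2% of all genes. All HET animals lay below all WT animals in 6 regulators and above them in 1, against 13.5% and 15.5% of all genes. *Ctcf*, which loops cluster promoters to their enhancer, was at 42.3, 40.2 and 41.9 CPM in HET animals and 44.1, 42.8 and 40.5 CPM in WT animals, and the cohesin subunit *Rad21* at 113, 104 and 103 CPM against 108, 98.9 and 106 CPM, so both overlapped (neither was set by the rule for named genes). The 3 with the smallest p were lower in every HET animal: *Tet2*, an enzyme that oxidises methylated cytosine, at a log2 fold change of −0.32, *Wiz*, a zinc finger partner of histone methyltransferases, at −0.29, and the DNA methyltransferase *Dnmt3a* at −0.32. *Dnmt3a* was at 133, 151 and 169 CPM in HET animals and 186, 203 and 175 CPM in WT animals (adjusted p = 0.19 from edgeR).

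Of 22 cytoplasmic partners and proteases of the protocadherins, 9 had a positive and 13 a negative log2 fold change (median −0.03). None passed with edgeR. By its unadjusted p under 0.05, 3 were higher and 2 lower, against 13.2% and 9.11% of all genes. All HET animals lay above all WT animals in 6 of these genes and below them in 2, against 15.5% and 13.5% of all genes. *Nlgn2*, a postsynaptic adhesion protein of inhibitory synapses, was at 167, 205 and 224 CPM in HET animals and 290, 319 and 242 CPM in WT animals (log2 fold change −0.51, adjusted p = 0.17 from edgeR). The kinase gene *Fyn*, at 92.6, 123 and 119 CPM in HET animals and 145, 150.0 and 127 CPM in WT animals, was lower in every HET animal as well (log2 fold change −0.34). *Adam10*, the protease that sheds protocadherin ectodomains, was at 104, 91.7 and 91.5 CPM in HET animals and 74.5, 82.9 and 85.3 CPM in WT animals, higher in every HET animal (log2 fold change 0.24, adjusted p = 0.20 from edgeR). Pan-neuronal markers were lower and several non-neuronal marker sums higher in the same animals, and their part in the values of these lists was not tested.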

How the data were processed

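RNA of cultures from 6 animals, 3 HET and 3 WT with 2 libraries each, was analysed. The authors mapped 12 libraries of dUTP (strand-marked) reads to mm10 with STAR and deposited raw counts for each gene in each library. The tool that counted reads was not given in the sources used here. Their deposited normalised counts and their own table of fold changes and p-values were not used. Identifiers and exon lengths matched GENCODE M21 for 57 members, all but *Pcdhgb8*, so constant-exon lengths were taken from it. Counting used strand: antisense *Gm37446* had 0 counts where *Pcdhb12* had 86 to 199. The read-through models *Gm42416*, *Gm37013*, *Gm37388* and *Gm38182*, which share exons with members, are not members.

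Library counts were added up per animal and fitted over the whole table with edgeR 4.0.16 (R 4.3.3). Its low-count filter, applied by genotype, kept 18264 of 55397 genes. Libraries were scaled by TMM, genes tested by quasi-likelihood (legacy setting, no covariate), and p-values adjusted after Benjamini-Hochberg, with a threshold of 0.1. CPM refers to the TMM-scaled library. The own-exon excess, each alpha or gamma row minus the lowest row of its cluster, was fitted in place of these rows in the same way, an alternative added after the data were seen. No covariate was used since the labels give all animals as male. Alternatives were DESeq2 1.42.0, other scalings and filters, genetic sex as covariate, single libraries, library number as block, edgeR without the legacy setting, and each animal left out. Totals per library were 20181477 to 26594444 counts. P-values measure the spread between animals, which the labels do not tie to litters or culture days.

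Members and gene lists were chosen with earlier results of these data known. Genes were named by rule: the 5 C-type members, the 3 alternate members of each cluster with the highest CPM, the 4 members of smallest p in each direction, and the 3 genes of smallest p in each other list; exceptions are marked. No sequences are shown. Figures were drawn with matplotlib 3.10.9.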

Additional observations from a re-analysis of the deposited data

How the results depend on the processing

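Neither DESeq2, other scalings or filters, genetic sex as covariate, single libraries nor any animal left out gave a member past the adjusted threshold in the deposited rows. The animal numbers are not shared between genotypes, so animals could not be paired; library numbers were, but did not mark a shared batch (correlation between animals of library 1 minus library 2, −0.016 to 0.017 over 15 pairs and 18264 genes). With library number as replicate block over 12 libraries, which counts both libraries of an animal as independent, edgeR called 2 members higher (*Pcdhgb6* and *Pcdhgc3*) and 17 lower (the 14 alpha rows, *Pcdhb2*, *Pcdhb3* and *Pcdhb13*). With an animal left out, own-exon fits called 0 to 1 members higher and 0 to 1 lower. The shares of all genes called in the 12-library fit and in these own-exon fits are not given here. The 14 alpha rows repeat largely 1 measurement. Members with all HET animals above all WT animals numbered 7 from library 1 alone and 5 in the own-exon table. That table keeps the beta rows and the shared rows unchanged, and by own-exon excess itself 3 gamma members lay above. With an animal left out, which makes separation easier, members above numbered 15 to 23. Members below numbered 13 from library 1 alone, 1 by own-exon excess, 0 to 17 with an animal left out and 1 from library 2 alone. The shares of all genes for single libraries and with an animal left out are not given here. DESeq2 called 1 delta protocadherin higher and 1 lower, 1 regulator lower and 1 partner lower, and edgeR with an animal left out 0 to 1 partners higher and 0 to 1 lower.

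Some signs turned, and the cause was not tested. Fits with an animal or the shared count removed also had their filter and scaling worked out anew. The own-exon excess turned 11 gamma and 2 alpha members, among the genes named by rule *Pcdhgc4* (−0.41), *Pcdhgc5* (−0.10), *Pcdhga11* (−0.19) and *Pcdha12* (0.064). Library 1 alone turned *Pcdhb7* (0.0076) and *Pcdhb18* (0.066), as did library totals without TMM for *Pcdhb18* (0.012). With an animal left out, *Pcdhb7* was at −0.29 to 0.093, *Pcdhb18* at −0.10 to 0.033 and the excess of *Pcdha12* at −0.12 to 0.20, with −0.05 without WT 510. The median of the delta protocadherins was at −0.40 to 0.024 and that of the partners at −0.078 to 0.0092. The direction of each cluster's sum held under every scaling, library and animal left out. Tested beta rows lay between 0.861 CPM (*Pcdhb15*) and 16.1 CPM (*Pcdhb22*), both in HET 508. Such low levels limit what 3 animals per genotype can show.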

Other observations

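Of the 4 read-through gene models that share exons with members, *Gm38182* has exon bases in common with gamma members alone (1530 bases), and *Gm42416* (2410 alpha and 446 gamma bases), *Gm37013* (222 and 91) and *Gm37388* (338 and 91) with both clusters. *Gm38182* had 16679, 14395 and 14345 counts in HET animals 505, 506 and 508 and 16741, 14004 and 15048 counts in WT animals 510, 511 and 513 (log2 fold change 0.12, standard error 0.10, adjusted p = 0.46 from edgeR), which overlapped as CPM. *Gm42416* had 12382, 10994 and 10941 counts in HET animals and 13038, 10945 and 11329 counts in WT animals (log2 fold change 0.09, adjusted p = 0.54 from edgeR), with every HET animal above every WT animal as CPM. *Gm37013* was at 108, 106 and 106.5 CPM in HET animals and 99.0, 99.3 and 107 CPM in WT animals, and *Gm37388* at 108.5, 106 and 107 CPM against 99.5, 99.9 and 107 CPM, each with a log2 fold change of 0.07 and with overlap.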
